A study of Mus musculus with 12 samples.

Results

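Conventional CD4 T cells are helper T cells that carry the co-receptor CD4 and lack Foxp3, the factor that defines regulatory T cells. They were followed in lymph nodes of mice whose abdominal skin had been treated with oxazolone, a contact sensitizer. A cell was counted as a member when it held at least 2 unique molecular identifiers (UMIs, each marking 1 captured RNA molecule) of Cd3d, Cd3e and Cd3g together and at least 1 of Cd4. It also had to hold no UMI of Cd8a, Cd8b1, Foxp3, Cd79a, Ms4a1 or Trdc. Of 45341 cells in the 6 CD45 libraries, 2894 were members, and the whole series of 12 libraries held 95358 cells. The counts of these genes chose the members, so the levels of those genes in the members are a description.

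Each CD45 library stood for 1 combination of treatment and genotype label. The labels give C57BL/6 mice of 7 to 10 weeks and the genotype ATG12 fl/fl x CDH5 CreER, marked Cre negative in 3 of these libraries and Cre positive in the other 3. All mice had received tamoxifen 5 times, so the mice labelled Cre negative had it too. Cdh5 is an endothelial promoter, so the members are not the cells in which the labels place the recombination. In the vehicle group the shaved abdomen got acetone and olive oil (3:1) alone, and in the other groups 4% oxazolone in that solvent, with nodes taken at day 3 or day 7. The digested nodes were split on CD45 microbeads, the bound immune fraction was flow-sorted, and libraries were made with a 10x Genomics 3' kit aimed at 10000 cells. How many mice went into a library is not stated. Values for the 6 libraries are listed throughout as vehicle Cre-negative, vehicle Cre-positive, day 3 Cre-negative, day 3 Cre-positive, day 7 Cre-negative and day 7 Cre-positive.

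Naive CD4 T cells enter a node through its high endothelial venules with Ccr7, scan dendritic cells, and leave along a sphingosine 1-phosphate gradient sensed by S1pr1. Cells that meet antigen hold back from leaving, divide and turn on costimulatory receptors and cytokines. Some become follicular helper cells, which use Cxcr5 to reach B cell follicles and help germinal centre B cells with Cd40lg, Il21 and Il4.

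The members numbered 491, 402, 531, 346, 497 and 627, which was 5.81, 6.4, 6.43, 5.78, 6.5 and 7.19% of all cells. They held 2989135, 2558057, 5568831, 4685030, 2330755 and 4043239 UMIs in sum, in libraries of 36724887 to 70160214 UMIs. Their median depth was 4750, 5693.5, 5249, 7106.5, 4055 and 5483 UMIs per cell. A single Cd4 UMI admitted 55.8, 58.7, 55.7, 44.2, 67 and 48.2% of them. Among all cells that met the Cd3, B cell and Trdc criteria, 22.2% to 30.6% held neither Cd4 nor Cd8 UMIs, so the members are the part of the CD4 T cells in which Cd4 was captured. At the Cd3 threshold, 6, 8, 8, 5, 12 and 7 members held exactly 2 Cd3 UMIs, with Lef1 at 842, 439, 570, 1567, 542 and 943 CPM (the gene's share of the summed UMIs, scaled to a fixed total). The 7, 6, 9, 1, 6 and 8 cells just outside, with 1 Cd3 UMI, held Lef1 at 353, 124, 445, 0, 258 and 217 CPM.

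Markers that the rule did not use separated the members from B cells by Lef1 and from CD8 T cells by Cd40lg and Zbtb7b. Their values stand with the comparison with CD8 T cells. Il7r, another of the 12 conventional CD4 T cell markers, went the other way and was lower in members than in CD8 T cells. Lef1, a transcription factor of naive and resting T cells (ENSMUSG00000027985, chr3:131110471-131224356, plus strand, GRCm38), was detected in 73.5, 89.3, 87.8, 92.2, 79.9 and 85.3% of members. B cells, at median depths of 3260, 3701, 3241.5, 4418, 2555 and 3773 UMIs, gave 2.67, 3.98, 2.06, 2.64, 2.35 and 2.36%. CD8 T cells gave 87.5, 94.9, 89.7, 94.9, 86 and 91%, above the members in each library, so Lef1 does not tell these 2 types apart. The summed level of the 12 conventional CD4 T cell markers, among them the rule genes Cd4 and Cd3e, was 5615, 5639.8, 4696, 5051, 5829 and 5627 CPM, against 3891 to 4551 CPM in CD8 T cells with Cd4 at 0 by rule. Of the 8 CD8 T cell markers, Cd8a and Cd8b1 were at 0 by rule and the sum was 113 to 157 CPM, and the gamma-delta T cell sum, with Trdc at 0 by rule, was at most 6.68 CPM. The B cell list summed to 568, 299, 452, 402, 359 and 627 CPM with Cd79a and Ms4a1 at 0 by rule, and the myeloid list to 300.1, 98.1, 303, 297, 145 and 328 CPM. The regulatory T cell list summed to 966, 641, 719.5, 742, 727 and 734 CPM with Foxp3 at 0 by rule. An Il2ra or Ikzf2 UMI, both high in regulatory T cells, was present in 34.8, 17.9, 30.5, 35.5, 18.1 and 24.6% of members, so cells whose Foxp3 was not captured may remain. The 14 stromal and endothelial markers summed to 1155, 1661, 799, 915, 1407 and 1959.8 CPM, led by Dcn or Ccl21a, with Lyve1 at 0 in 5 libraries and Cldn5 at 0 in 4. Without the 4.07, 4.48, 5.27, 5.78, 3.82 and 8.93% of members that held 3 or more of these genes, and so by selection, that sum was 165, 262, 166, 228, 222 and 266 CPM.

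The libraries differed in 3 further respects. Free RNA, read from barcodes of at most 50 UMIs, was estimated to make up 2.65, 12.4, 3.76, 5.27, 6.12 and 5.57% of member UMIs. The estimate took all member UMIs of Col1a1, Col1a2, Ccl21a, Lyz2, C1qa, C1qb, Igkc and Jchain as free RNA. Members with stromal genes were kept in it, so it may be too high. Xist, expressed in female cells, was seen in 32, 0, 54.4, 38.7, 31.8 and 32.7% of members and Y-linked genes in 39.9, 73.9, 24.5, 47.1, 30.8 and 23.3%, so 5 libraries held cells of both sexes and the vehicle Cre-positive library held 0 of 402 members with Xist, which by 3 counts of the total allows a share of members with an Xist UMI of up to 0.746%. Pairs of CD45 libraries shared 8 to 21 cell barcodes, 1 of them a member in each of 2 pairs. With 1 library per combination, p-values measure the spread between these libraries, and an exact permutation test could not go below p = 0.333 for a treatment or 0.1 for the label, so shares of cells are given with exact 95% intervals (Clopper-Pearson, counting error only) and no test. Atg12, the floxed gene (ENSMUSG00000032905, chr18:46730144-46741580, minus strand), was at 49.2, 45, 36.3, 39.5, 42.9 and 47.2 CPM in members, against 43.9, 50.8, 41, 48.8, 45.4 and 45.2 in CD8 T cells. It did not differ by label (log2 difference -0.04, SE 0.12, adjusted p = 0.949, edgeR's quasi-likelihood test with Benjamini-Hochberg adjustment), and the 3' assay may still count a recombined allele. The level therefore checks nothing about the labels, which are used as given.

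Members with transcripts of the cell cycle were more frequent at day 3 of oxazolone than in vehicle or at day 7. A cell was gated as cycling when it held at least 2 of the 8 genes Mki67, Top2a, Birc5, Cdk1, Ccna2, Ccnb1, Rrm2 and Tyms, a gate chosen after the day 3 values were seen. The gate held 41, 9, 135, 81, 16 and 29 members. At vehicle that was 8.35% (6.06% to 11.2%) in the Cre-negative and 2.24% (1.03% to 4.21%) in the Cre-positive library. At day 3 it was 25.4% (21.8% to 29.4%) and 23.4% (19% to 28.2%), and at day 7 3.22% (1.85% to 5.18%) and 4.63% (3.12% to 6.58%). Both day 3 libraries stood above the other 4. The intervals count cells within a library and do not measure the spread between libraries or mice. After each cell was thinned to 1000 UMIs the shares were 4.07, 1.49, 11.3, 10.7, 1.01 and 1.59%, with the day 3 libraries again highest. In B cells the gate held 4.83, 1.47, 2.92, 2.72, 0.385 and 6.7%, and in CD8 T cells 3.81, 2.2, 11.8, 10.9, 1.22 and 4.08%, at median depths of 5833.5, 7709, 5902, 8454, 5059 and 6654 UMIs. Among Foxp3-positive CD4 T cells it held 32.4, 24, 53.5, 57.7, 22.2 and 30.1%, at median depths of 5815.5, 6827, 11305, 13978, 4478 and 7096 UMIs. Among members without an Il2ra or Ikzf2 UMI, a selection in which depth was not matched, it held 3.44, 0.303, 11.4, 9.87, 1.47 and 2.75%.

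Cycling members were deep cells and so weighed more in the summed counts than their number. Their median depth was 14175, 14581, 22525, 28484, 8704 and 14668 UMIs, against 4571, 5685, 4570, 6321, 4026 and 5400 in the other members. They supplied 20.9, 4.7, 61, 55.6, 9.52 and 12.8% of all member UMIs. The day 3 libraries stood far above the other 4 in this share, and vehicle Cre-positive was lowest. Mki67, a nuclear protein of dividing cells, was at 93.7, 37.5, 192.5, 249.7, 35.6 and 29.7 CPM over all members.

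**Figure D1:**
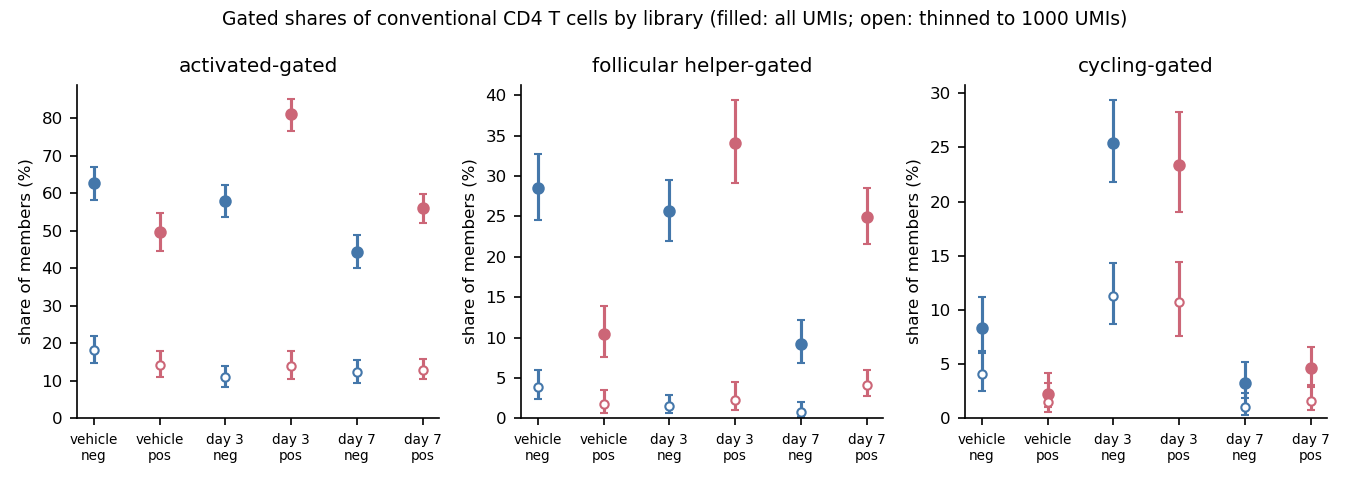
Share of conventional CD4 T cells (vertical axis, percent of members) that passed the activated, follicular helper and cycling gates in each library (horizontal axis, treatment). Filled points use all UMIs, open points cells thinned to 1000 UMIs; blue is Cre-negative, red Cre-positive, and bars are exact 95% intervals. The cycling share of both day 3 libraries (25.4% and 23.4%) lies above that of the other 4 libraries, while the other gates show no such split by treatment.

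The sex of the cells moved with the cycling share at day 3. Among day 3 members with Xist and no Y-linked UMI the gate held 39.2% (33.2% to 45.3%) of 263 cells in the Cre-negative and 38.7% (30.1% to 47.9%) of 124 cells in the Cre-positive library. Among members with a Y-linked UMI and no Xist it held 15.4% (9.06% to 23.8%) of 104 and 17% (11.4% to 23.9%) of 153 cells. Median depths were 6882 and 7384.5 UMIs with Xist and 5557 and 7451 with Y-linked UMIs, and after thinning the shares were 21.7% and 21% against 9.62% and 6.54%. At vehicle the Cre-negative library gave 5.41% with Xist and 13.4% with Y-linked UMIs, and the Cre-positive library, which had Y-linked cells alone, gave 2.36%. At day 7 the values were 3.4% and 5.61% with Xist and 6.34% and 5.84% with Y-linked UMIs. Among Y-linked cells the vehicle value of the Cre-negative pair thus lay inside the day 3 interval. Cells of the 2 sexes come from different mice, so sex and mouse cannot be told apart.

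Cells passing the same member gate were also present in the CD31 libraries, which hold the bead-unbound fraction of each group, as 352, 195, 195, 257, 237 and 220 cells. Their cycling share was 8.81, 3.59, 42.1, 51, 5.91 and 8.64%, and 3.69, 1.54, 21.5, 29.6, 1.69 and 4.09% after thinning. Day 3 was again highest with both labels. Split by sex, the day 3 shares were 60.9% and 69.2% with Xist against 30.3% and 34.9% with Y-linked UMIs. The Xist cells were deeper there, with medians of 14667 and 17459.5 UMIs against 7599 and 8895.5, and after thinning the shares were 32.7% and 40.8% against 18.2% and 19.8%. At vehicle they were 7.83% with Xist in the Cre-negative library and 10.8% and 4.23% with Y-linked UMIs. Here the Y-linked cells of both day 3 libraries stood above both vehicle libraries. The day 3 Cre-negative value rested on 33 cells, and its interval (15.6% to 48.7%) overlapped that of vehicle Cre-negative (6.17% to 17.2%). The day 3 Cre-positive value rested on 86 cells (24.9% to 45.9%). Whether the fractions of a group came from the same mice is not stated, and 13 to 26 cell barcodes occurred in both fractions of a group.

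**Figure D2:**
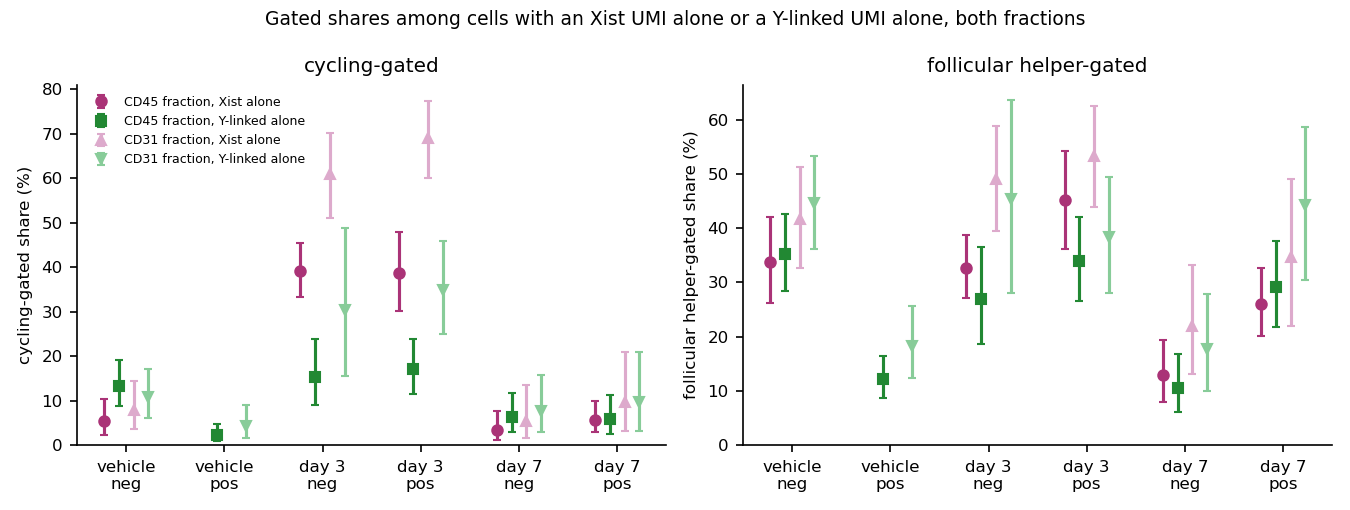
Cycling-gated and follicular helper-gated shares (vertical axis, percent) among gated cells with Xist alone and with Y-linked UMIs alone, by library (horizontal axis), in the CD45 and the CD31 fraction; bars are exact 95% intervals. At day 3 the cycling share is higher in Xist cells (39.2% and 38.7% in the CD45 fraction) than in Y-linked cells (15.4% and 17%).

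The sums of member counts per library were compared across treatments in a model with terms for treatment and label, fitted over 11561 genes with edgeR's quasi-likelihood test and Benjamini-Hochberg adjustment. The 2 labels stood as the replicates of each treatment, so a treatment difference that varied with the label counted as error. Between day 3 and vehicle 181 genes (1.57% of those tested) were higher and 26 (0.225%) lower at an adjusted p below 0.05. The lowest adjusted p was 0.0364 and 420 genes lay below 0.06, so many calls sat near the threshold. Leaving out 1 library moved the count to 3 (vehicle Cre-positive), 3 (day 3 Cre-positive), 50 (day 3 Cre-negative) or 821 (vehicle Cre-negative). With library sums alone in place of TMM scaling 0 genes were called, and 2575 had an unadjusted p under 0.05. Leaving out the cycling-gated members left 2 called genes, Acta2 higher and Klf4 lower. In members with Y-linked UMIs and no Xist, which are fewer cells of 1 sex, 1 gene was called higher and 7 lower, and 0 of these were among the 207.

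Of the 20 cell cycle genes of a list, 11 were called higher and 0 lower at day 3, where 1.57% and 0.225% of all genes were. Their median log2 change was 1.79 against -0.05 over all genes tested. All 20 had a value above 0. Within the Cre-negative pair of libraries the median change was 1.25 and within the Cre-positive pair 2.31. The calls depended on single libraries. Without vehicle Cre-positive, the genes called were not among the 207. The called members were the mitotic cyclins Ccnb1, Ccnb2 and Ccna2, the cyclin-dependent kinase Cdk1, the survivin gene Birc5, the microtubule regulator Stmn1, the chromatin proteins Hmgb2 and H2afz, tubulin Tubb5, the transport GTPase Ran and the nucleoside kinase Nme1. Ccnb1 was at 22.1, 8.6, 64.1, 60.8, 11.2 and 8.66 CPM (log2 change 2.09, SE 0.28, adjusted p = 0.0415). Birc5 was at 89.7, 32.4, 306, 210.2, 42 and 29.9 CPM (log2 change 2.20, SE 0.23, adjusted p = 0.0364). Both day 3 libraries were above all other libraries for these genes. Outside the cycling gate, which uses Birc5 and Ccnb1, Birc5 was at 0.423, 0.82, 5.52, 3.36, 0 and 1.42 CPM. In that remainder 14 of the 20 list genes could be tested, 0 were called, and their median was 0.11. All 8 genes of the gate are on the list, so the gate removed cells that held them. The values of the remainder were set in part by that selection and are no test of the list. In Y-linked cells alone 0 were called, with a median of 0.61. Without members holding an Il2ra or Ikzf2 UMI, 1 of 20 was called, with a median of 1.37.

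Promoters of the list were searched for 2 short motifs of cell cycle genes, the cell cycle homology region in the form TTTGAAA and the CCAAT box (CCAAT), each on both strands. Stretches that match TTTGAA but not the last A were not counted and stay in lower case below. The motifs share no sequence. Of the 20 genes, 17 matched a RefSeq promoter (GRCm38.p6), taken from 250 bases before to 50 after the start. TTTGAAA was in 3 of the 17 and in 6.5% of 32851 promoters, CCAAT in 12 of the 17 and in 37.4%, and both in 3 of the 17 and in 2.49%. The 3 promoters with both, of Ccnb2, Cdk1 and Hmgb2, are shown because all 3 genes were called higher at day 3. They run 5′ to 3′ on the gene's strand, with motif matches on either strand (TTTCAAA and ATTGG on the other) in capitals. Ccnb2 lies at chr9:70421505-70421804 (minus strand), Cdk1 at chr10:69352863-69353162 (minus strand) and Hmgb2 at chr8:57511593-57511892 (plus strand).
Ccnb2: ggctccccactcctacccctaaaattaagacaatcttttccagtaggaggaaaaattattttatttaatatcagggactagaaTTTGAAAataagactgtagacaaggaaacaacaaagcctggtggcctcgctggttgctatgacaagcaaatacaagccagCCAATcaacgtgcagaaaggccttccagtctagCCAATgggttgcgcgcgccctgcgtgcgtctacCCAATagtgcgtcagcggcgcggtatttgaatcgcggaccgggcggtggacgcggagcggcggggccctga
Cdk1: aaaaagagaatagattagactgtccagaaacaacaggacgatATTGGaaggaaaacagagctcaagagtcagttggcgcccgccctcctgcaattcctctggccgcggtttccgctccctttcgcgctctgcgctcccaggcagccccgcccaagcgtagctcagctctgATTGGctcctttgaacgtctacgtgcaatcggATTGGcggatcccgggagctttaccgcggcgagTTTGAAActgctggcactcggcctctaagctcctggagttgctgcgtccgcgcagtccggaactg
Hmgb2: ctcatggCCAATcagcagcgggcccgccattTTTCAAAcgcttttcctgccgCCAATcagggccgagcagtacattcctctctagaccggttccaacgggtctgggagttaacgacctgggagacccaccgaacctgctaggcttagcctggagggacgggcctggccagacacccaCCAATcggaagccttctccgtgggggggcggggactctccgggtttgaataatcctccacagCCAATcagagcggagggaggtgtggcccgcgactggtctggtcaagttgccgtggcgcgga
Ccnb2 and Cdk1 each hold 1 TTTGAAA and 3 CCAAT matches, and Hmgb2 holds 1 and 4. Ccnb2, a B-type cyclin, was at 35.5, 19.5, 104, 97.8, 21 and 9.65 CPM (log2 change 1.94, SE 0.26, adjusted p = 0.040). Cdk1, its kinase partner, was at 40.1, 19.2, 115, 94.1, 15.4 and 13.4 CPM (log2 change 1.88, SE 0.21, adjusted p = 0.0364). Hmgb2, a DNA-bending chromatin protein, was at 1141, 502, 2539, 2248, 577 and 525 CPM (log2 change 1.64, SE 0.25, adjusted p = 0.0452). A match is a stretch of letters and was not tested as a binding site.

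Other genes with large day 3 changes included further genes of cell division. Plk1, a mitotic kinase, was at 11, 5.47, 60, 42.3, 3.86 and 3.22 CPM (log2 change 2.66, SE 0.22, adjusted p = 0.0364). It reached the mean of 20 CPM asked of such named genes through the day 3 libraries alone, so its choice leaned on those values. Spc24 and Knl1, parts of the kinetochore, were higher by 2.31 and 2.21 on the log2 scale, and the histone genes Hist1h2ap and Hist1h2ae by 2.25 and 2.23. Fdps, an enzyme of isoprenoid and cholesterol synthesis, was at 35.8, 24.2, 146, 112, 27 and 27.5 CPM (log2 change 2.12, SE 0.17, adjusted p = 0.0364) and at 27.9, 22.2, 57.5, 39.4, 27.5 and 23.5 CPM outside the cycling gate, where it was not called. Where 1.57% of all genes were called higher and 0.225% lower at day 3, with a median of -0.05, of 13 glycolysis genes Eno1 and Ldha were called higher and 0 lower, with a list median of 1.02, and of 0.14 outside the gate. Ldha, lactate dehydrogenase, was at 380, 215, 778, 697, 292 and 312 CPM (log2 change 1.36, SE 0.21, adjusted p = 0.0473) and at 289, 202, 320.4, 326, 264 and 249.8 CPM outside the gate.

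Lgals7, a galectin, had the largest called day 3 change among genes averaging at least 20 CPM and moving one way with both labels, a mean that it reached through the day 3 libraries alone. It was at 10.4, 0.782, 122, 71.3, 0.429 and 2.47 CPM (log2 change 4.18, SE 0.58, adjusted p = 0.0423). Inside the cycling gate it was at 38.5, 0, 191, 113, 0 and 11.6 CPM and outside at 2.96, 0.82, 12.4, 18.7, 0.474 and 1.13. The low vehicle Cre-positive value and the low day 7 values left the day 3 pair well above the rest.

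The called genes Cxcl13 and Acta2 lay mostly in a small set of members. Cxcl13, a chemokine of follicular stromal cells, was at 10, 33.6, 357, 322, 44.2 and 84.8 CPM (log2 change 4.13, SE 0.46, adjusted p = 0.0364). Acta2, smooth muscle actin, was at 4.68, 7.43, 52.4, 33.1, 16.7 and 14.8 CPM (log2 change 2.82, SE 0.35, adjusted p = 0.037). Acta2 reached a mean of 20 CPM, the limit for naming, through the day 3 libraries alone. Members with at least 3 stromal genes held 86.7, 90.7, 98.7, 98.3, 96.1 and 95.3% of the Cxcl13 UMIs and 85.7, 84.2, 94.9, 94.2, 87.2 and 90% of the Acta2 UMIs. The median depth of these 20, 18, 28, 20, 19 and 56 cells was 11296, 14703.5, 19286.5, 25006, 8003 and 9946.5 UMIs. Without them Cxcl13 was higher by 1.23 with an adjusted p of 0.235, and 290 genes were called in the comparison. CD8 T cells with at least 3 stromal genes made up 2.31% to 7.39% and B cells 3.15% to 8.37%. The part of doublets in these cells was not tested.

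Of the 14 stromal and endothelial markers 9 could be tested at day 3 and 0 were called, which is near the share over all genes (1.57% higher and 0.225% lower). Their median was -0.94 against -0.05 over all genes. Igfbp3, a growth factor binding protein, was at 32.1, 33.6, 4.49, 1.28, 31.7 and 58.9 CPM (log2 change -3.42, SE 0.52, adjusted p = 0.0468). Klf4, a zinc finger transcription factor, was at 51.9, 83.3, 8.98, 18.4, 33 and 40.3 CPM (log2 change -2.32, SE 0.22, adjusted p = 0.0364), and without the stromal-gene members its adjusted p was 0.154. Ccdc80, Inmt and Gpx3 fell by 2.50, 2.16 and 2.11 on the log2 scale. Hcst encodes the signalling adaptor DAP10 and fell from 512 and 443 CPM at vehicle to 201 and 201 at day 3 (log2 change -1.23, SE 0.13, adjusted p = 0.0364). At day 7 it was at 479 and 456 CPM. Inside the cycling gate Hcst was at 212, 208, 93, 98, 194 and 141 CPM and outside it at 591, 454.5, 369, 331, 509 and 502. Fhit, a nucleotide hydrolase, was at 93.7, 98.5, 29.4, 42.7, 79.8 and 113 CPM (log2 change -1.43, SE 0.16, adjusted p = 0.0364).

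Genes of the naive state showed no called change at day 3, although 18 of 19 had a value below 0. The list median was -0.58 against -0.05 over all genes, with 0 called in either direction where 1.57% and 0.225% of all genes were. Outside the cycling gate the median was 0.02, and after thinning it was -0.04. Lef1 was at 526, 909, 418, 523, 767 and 668 CPM (log2 change -0.58, SE 0.26, adjusted p = 0.244). Cycling members held Lef1 at 215, 208, 194, 309.6, 189 and 151 CPM and the others at 608, 943, 769, 789.6, 827 and 743. In each library the cycling members were lower for this gene.

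Il7r, the interleukin 7 receptor chain that keeps resting T cells alive, was at 223, 413, 164, 178, 395 and 261 CPM (log2 change -0.88, SE 0.36, adjusted p = 0.213). It was lowest in the day 3 pair and next lowest in vehicle Cre-negative. Inside the cycling gate it was at 41.7, 74.9, 28.9, 52.2, 58.6 and 75.5 CPM and outside at 271, 429, 376, 334, 430.1 and 288. S1pr1, the egress receptor, was at 183, 317, 123, 159, 285 and 145 CPM (log2 change -0.82, SE 0.42, adjusted p = 0.293), and the day 7 Cre-positive value lay between the day 3 values. Klf2, which drives S1pr1, was at 707, 638, 497, 536, 744 and 559 CPM and at 794, 639.5, 748, 883, 795 and 613 outside the gate. Ccr7, the receptor for the T zone chemokines, was at 159, 214, 90.3, 192, 206 and 152 CPM (log2 change -0.44, SE 0.34, adjusted p = 0.481), with the groups overlapping.

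Tcf7, a partner of Lef1, was at 398, 344, 375, 388, 365 and 409 CPM and varied little between libraries (log2 change 0.05, SE 0.14, adjusted p = 0.851). Foxp1, which enforces quiescence, was at 678, 1168, 515, 634, 849.5 and 823 CPM (log2 change -0.65, SE 0.23, adjusted p = 0.17). Btg1, an antiproliferative gene, was at 1187, 1332, 628, 803, 1380.2 and 891 CPM (log2 change -0.81, SE 0.25, adjusted p = 0.135), with both day 3 libraries lowest. Bach2, a repressor of effector genes, was at 319, 641, 243, 354, 491 and 434 CPM, and Satb1, a chromatin organizer, at 447, 789.7, 417, 708, 598 and 592. For both, the vehicle Cre-positive library was highest and day 3 Cre-negative lowest. Igfbp4, an insulin-like growth factor binding protein found in naive CD4 T cells, was at 172, 294, 159, 97.8, 281 and 268 CPM, and Dapl1 at 205, 299.8, 191, 192, 301 and 195. Rflnb was at 86.3, 86, 44.2, 62.5, 76.8 and 111 CPM (log2 change -0.71, SE 0.16, adjusted p = 0.073), the lowest adjusted p of the list. Klf3, Txk, Als2cl, Actn1, Nsg2 and Il6st, the other members, had log2 changes between -0.76 and -0.13.

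Activation genes were called at no more than the share over all genes. Of 26 list genes 0 were called at day 3 (1.57% higher and 0.225% lower over all genes, with a median of -0.05), with a median of -0.11, and 0 at day 7 (0% over all genes), with a median of -0.06. Cd69, an early activation receptor that blocks egress, was at 157, 123, 99.8, 148, 168 and 118 CPM (log2 change -0.15, SE 0.27, adjusted p = 0.761). Cd44, an adhesion receptor of antigen-experienced cells (ENSMUSG00000005087, chr2:102811141-102901665, minus strand), was at 102, 89.5, 55.5, 97.5, 69.1 and 109 CPM (log2 change -0.38, SE 0.23, adjusted p = 0.37). For both genes the day 3 Cre-negative library was lowest, and the groups overlapped. Il2ra, the high-affinity interleukin 2 receptor chain, was at 25.4, 26.2, 35, 43.8, 29.6 and 24 CPM (log2 change 0.62, SE 0.21, adjusted p = 0.157). The day 3 libraries were the highest pair, but the gene was not called.

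Batf, a transcription factor of effector and follicular helper differentiation, was at 90.7, 55.9, 106, 137, 63.9 and 66.8 CPM (log2 change 0.75, SE 0.23, adjusted p = 0.133), also highest in the day 3 pair. Egr1, an immediate early factor downstream of the T cell receptor, was at 114, 119, 54.6, 53.1, 79.8 and 147 CPM (log2 change -1.09, SE 0.23, adjusted p = 0.0644), lowest in the day 3 pair. Nr4a1, another receptor-induced gene, was at 96.3, 72.3, 46.7, 95.6, 89.7 and 71.5 CPM. The costimulatory receptor Icos was at 370.3, 324, 285, 409, 235 and 313 CPM and Cd28 at 314, 305, 256, 327, 260.4 and 354. Ctla4, the inhibitory counterpart of Cd28, was at 317, 172, 266, 287, 175 and 219 CPM, and Tnfrsf4, which encodes OX40, at 160.2, 59, 117, 159, 114 and 124. These 4 genes overlapped between treatments. Cd40lg, the ligand through which helper cells license B cells and dendritic cells (ENSMUSG00000031132, chrX:57212143-57224042, plus strand), was at 168, 194, 106, 153, 234 and 151 CPM (log2 change -0.48, SE 0.29, adjusted p = 0.363). Il2, the growth cytokine, was low at 18.1, 19.5, 14.5, 8.54, 18.4 and 11.4 CPM. Irf4, a factor scaled to the strength of receptor signals, was at 34.1, 32.1, 38.1, 52.3, 25.3 and 29.4 CPM and Irf8, its relative, at 15.7, 14.1, 26.4, 23.1, 24 and 23 (log2 change 0.74, SE 0.19, adjusted p = 0.0924). Nr4a3, a relative of Nr4a1, was at 108, 110.2, 39.1, 103, 82.8 and 73.5 CPM, with day 3 Cre-negative lowest. The other list genes (Il2rb, Egr2, Egr3, Myc, Tnfrsf9, Tnfrsf18, Nfkbid, Nfkb1, Cd5, Cd6 and Tnf) had log2 changes between -0.58 and 0.22 at day 3.

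The activated gate required at least 2 of Cd69, Cd44, Il2ra, Tnfrsf4, Tnfrsf9, Icos, Irf4, Nr4a1 and Myc. It held 62.7% (58.3% to 67%) and 49.8% (44.8% to 54.7%) at vehicle, 58% (53.7% to 62.2%) and 81.2% (76.7% to 85.2%) at day 3, and 44.5% (40% to 49%) and 56% (52% to 59.9%) at day 7. Day 3 Cre-positive, the library with the deepest members, was highest. After thinning the shares were 18.1, 14.2, 10.9, 13.9, 12.3 and 12.9%, so vehicle Cre-negative was highest and day 3 Cre-negative lowest. CD8 T cells gave 46.5, 56.1, 45.5, 75.9, 39.1 and 48.1% and B cells 37% to 67.9%, so cells of other types passed this gate at overlapping shares, and B cells exceeded the members in vehicle Cre-positive and day 7 Cre-negative. Of activated-gated members 13.3, 4.5, 41.2, 28.5, 6.79 and 7.69% were cycling-gated.

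**Figure D3:**
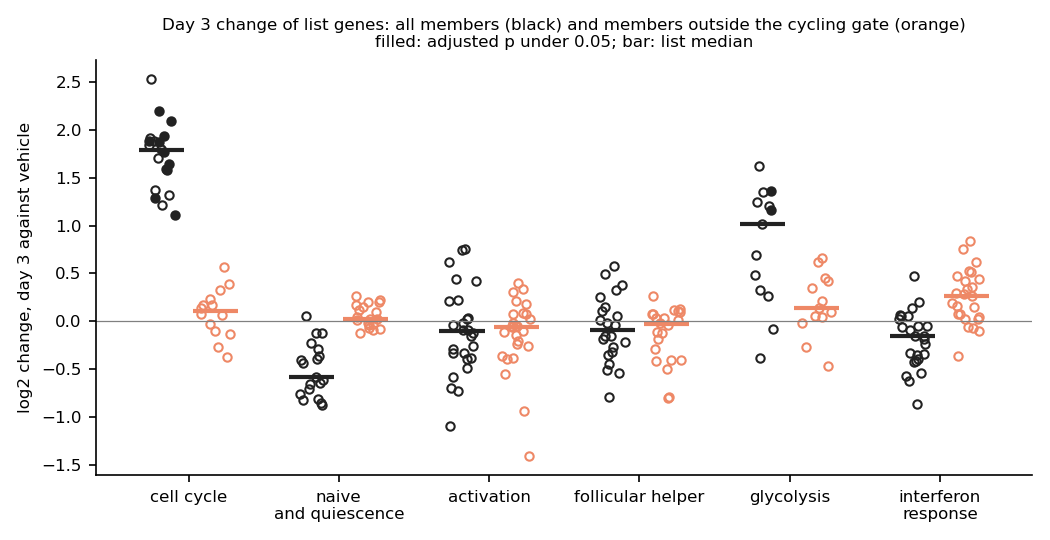
Log2 change from vehicle to day 3 (vertical axis) of each gene in the lists named on the horizontal axis, for all members (black) and for members outside the cycling gate (orange). Filled points had an adjusted p below 0.05 and the bar marks the median. Cell cycle genes lie above 0 in all members (median 1.79), and the naive list lies mostly below 0 (median -0.58) but not outside the cycling gate (0.02).

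Follicular helper genes differed between libraries without following treatment or label alone. Of 22 list genes tested 0 were called at day 3, at day 7 or by label, with medians of -0.10, -0.08 and -0.01. These counts are near the share over all genes, which was 1.57% higher and 0.225% lower at day 3 and 0% at day 7 and by label. Within treatments the Cre-positive library had a list median lower by 0.91 at vehicle and higher by 0.23 at day 3 and by 0.60 at day 7, on the log2 scale. The fit counts a label difference that varies with treatment as error, so the 0 calls do not speak to it. The vehicle Cre-positive and day 7 Cre-negative libraries were low for many of these genes.

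Maf, which controls follicular helper cytokines, was at 285, 79, 163, 144, 84.5 and 194 CPM (label log2 difference -0.36, SE 0.51, adjusted p = 0.861). Vehicle Cre-negative was highest and vehicle Cre-positive lowest, so the treatments overlapped. Cxcr5, the follicle-homing receptor (ENSMUSG00000047880, chr9:44511787-44561877, minus strand), was at 28.1, 5.08, 15.8, 30.5, 10.3 and 31.9 CPM (label log2 difference 0.19, SE 0.66, adjusted p = 0.952). Free RNA of the same libraries held Cxcr5 at 37.9, 33.7, 14.7, 28.4, 29.9 and 32 CPM, above the members in 4 of 6 libraries. Il4, the cytokine that follicular and type 2 helper cells give to B cells (ENSMUSG00000000869, chr11:53602982-53618669, minus strand), was at 51.5, 5.86, 30, 17.9, 1.72 and 28.2 CPM (label log2 difference -0.55, SE 0.96, adjusted p = 0.888). Free RNA held at most 7.74 CPM of Il4. Tox2, a factor of the follicular helper programme, was at 49.2, 9.77, 30.3, 45.7, 14.2 and 47.2 CPM, and Sostdc1, a secreted BMP and Wnt antagonist made by some follicular helper cells, at 49.8, 8.99, 17.6, 25.8, 4.72 and 52.2. For all 5 genes vehicle Cre-positive and day 7 Cre-negative were the 2 lowest libraries.

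Pdcd1, which encodes the inhibitory receptor PD-1, was at 34.8, 13.7, 33.4, 34.2, 15 and 32.6 CPM and was likewise low in those libraries. Bcl6, the master regulator of follicular helper cells, ranged less, at 67.2, 55.9, 44.4, 54.2, 42.5 and 66 CPM. Cd200 was at 166, 46.9, 87.6, 100.3, 65.6 and 75.7 CPM and Izumo1r, the folate receptor 4 gene, at 249, 88, 108, 127, 148 and 226. Sh2d1a, the adaptor SAP that stabilizes contacts with B cells, was at 213, 115, 259.7, 217, 126 and 175 CPM and its receptor partner Slamf6 at 308, 160.3, 236, 318, 180.2 and 257. Btla, an inhibitory receptor, was at 223, 144, 144, 241, 104 and 196 CPM. Gpr183, the oxysterol receptor that positions T cells at the follicle border, was at 374, 304, 262, 335, 272 and 350 CPM. Selplg, which encodes PSGL-1 and is low on follicular helper cells, was at 130.5, 181, 126, 139.6, 149 and 143 CPM and highest in vehicle Cre-positive. Tox was at 699.5, 654, 350.2, 637, 489.5 and 732 CPM, lowest in day 3 Cre-negative, Tnfsf8, the CD30 ligand gene, at 161, 97.7, 76.3, 223, 121 and 131, and Id3, an inhibitor of E proteins, at 134, 75.8, 136, 92.4, 88.4 and 128. Angptl2 and P2rx7 averaged just under 20 CPM, Il21 stood at 16.1, 0, 5.93, 4.7, 4.72 and 10.1 CPM, and Ascl2 was the 1 of 23 list genes that fell under the filter on low counts.

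**Figure D4:**
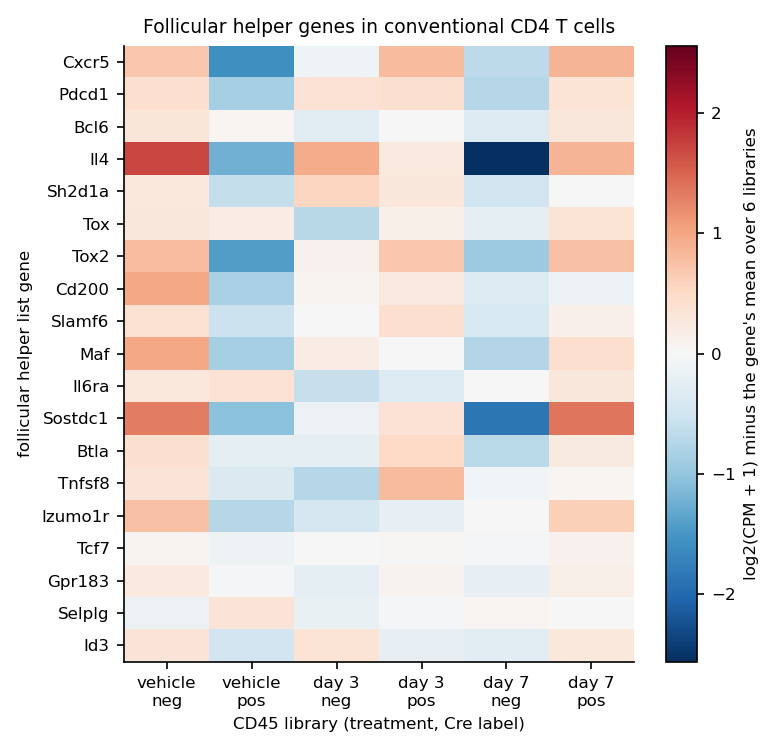
Level of 19 follicular helper list genes with a mean of at least 20 CPM (vertical axis) in each library (horizontal axis), as log2(CPM + 1) minus the gene's mean over the 6 libraries (colour). The vehicle Cre-positive and day 7 Cre-negative columns are low for Cxcr5 (5.08 and 10.3 CPM), Il4, Tox2, Sostdc1 and Maf.

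The follicular helper gate required at least 2 of Cxcr5, Pdcd1, Bcl6, Il21, Tox2, Sostdc1 and Cd200. It held 28.5% (24.6% to 32.7%) and 10.4% (7.63% to 13.9%) at vehicle, 25.6% (21.9% to 29.5%) and 34.1% (29.1% to 39.4%) at day 3, and 9.26% (6.86% to 12.2%) and 24.9% (21.5% to 28.5%) at day 7. The order of the labels was thus opposite at vehicle and at day 7. CD8 T cells gave 3.27, 3.35, 7.35, 10.9, 1.8 and 5.64%, below the members in every library. B cells, which themselves express Cxcr5, Bcl6 and Cd200, gave 11.1% to 27.7%, above the members in vehicle Cre-positive and day 7 Cre-negative. After thinning the members' shares were 3.87, 1.74, 1.51, 2.31, 0.805 and 4.15%, with vehicle Cre-negative and day 7 Cre-positive highest and both day 3 libraries between the vehicle values or below them.

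At day 3 the gate and the cycling gate overlapped. Of follicular helper-gated members 16.4, 9.52, 64, 55.1, 10.9 and 9.62% were cycling-gated, and their median depth was 5914, 6761.5, 18082.5, 20415, 5601 and 6342 UMIs, against 4357, 5672, 4659, 6156.5, 3971 and 5239 in the other members. Outside the cycling gate the follicular helper share was 26, 9.67, 12.4, 20, 8.52 and 23.6%. Without Il2ra or Ikzf2 UMIs, where depth was not matched, it was 18.1, 5.45, 13.8, 14.3, 4.91 and 15%. Outside the cycling gate Maf was at 299.8, 77.9, 133, 138, 79.7 and 200.5 CPM and Il4 at 54.1, 6.15, 22.6, 17.8, 1.42 and 30.9, with the same libraries low. Among follicular helper-gated members Il4 was at 99.4, 38.4, 38.8, 26.5, 2.81 and 64.5 CPM and Il21, the other helper cytokine, at 40.3, 0, 10.7, 7.48, 22.5 and 29.7.

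In the CD31 libraries the same groups were lowest for Il4, Cxcr5, Tox2, Sostdc1 and Maf, but not for each gene of the list. There Il4 was at 80.9, 3.16, 24.3, 27, 2.73 and 60.2 CPM and Cxcr5 at 22.3, 3.95, 29.2, 26, 5.46 and 30.7 in cells passing the member gate. Tox2 was at 64.8, 21.3, 35.8, 37.8, 31.4 and 68.3 CPM, Sostdc1 at 25.2, 0, 4.87, 19.5, 1.36 and 20.2 and Maf at 348, 86.9, 237, 238, 169.9 and 340.1. Vehicle Cre-positive and day 7 Cre-negative were the 2 lowest libraries for each of the 5. Pdcd1, by contrast, was at 28.2, 20.5, 31.3, 31, 36.8 and 51.5 CPM there, with day 7 Cre-negative second highest. Bcl6 was at 53.4, 69.5, 38.2, 46.1, 62.1 and 60.2 CPM and Tox at 601, 732, 426, 398, 538 and 633, both highest in vehicle Cre-positive. The follicular helper-gated share was 35.5, 14.9, 36.9, 42, 16.5 and 33.6%, and 5.4, 1.03, 3.08, 1.95, 1.69 and 7.27% after thinning. Lef1 and Il7r were high where the 5 genes were low, at 425, 924, 307, 289, 697 and 400.3 and 218, 393, 81, 97.4, 365 and 193 CPM.

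Within 1 sex the follicular helper shares differed between labels too. Among members with Y-linked UMIs alone the share was 35.3% in vehicle Cre-negative and 12.1% in vehicle Cre-positive, and 10.6% and 29.2% at day 7. Among those with Xist alone it was 33.8% in vehicle Cre-negative and 12.9% and 26% at day 7. Within either sex the day 7 Cre-positive library stood above the Cre-negative one, and among Y-linked cells vehicle Cre-positive stood below vehicle Cre-negative.

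In the type 1, type 2 and type 17 helper lists edgeR's quasi-likelihood test called 0 genes at day 3, at day 7 or by label, while DESeq2 called Rora by label. For lists of this size that is near the share over all genes (1.57% higher and 0.225% lower at day 3, 0% at day 7 and by label). Of 14 type 1 helper genes 0 were called at day 3 (median -0.45), at day 7 or by label. Ccl5, a chemokine of memory and cytotoxic cells chosen after its values were seen, was at 605, 14.1, 20.7, 92.8, 36.5 and 104 CPM, with vehicle Cre-negative far above the rest. Gata3, the type 2 factor, was at 95, 62.5, 71.1, 73.6, 60.9 and 75.2 CPM and Stat4, which transmits interleukin 12 signals, at 259, 207, 147, 400.2, 130 and 272. Rora, of the type 17 list, was at 100.4, 151, 79.4, 162, 91 and 171 CPM and higher in the Cre-positive library of each treatment (label log2 difference 0.76, SE 0.12, adjusted p = 0.603). Of 25 interferon response genes 0 were called at day 3, with a median of -0.15. Of 20 immediate early genes 0 were called, with a median of -0.60. Both counts are near the day 3 share over all genes given above. Fosb was at 72.3, 73.1, 18, 41, 37.8 and 72 CPM (log2 change -1.41, SE 0.27, adjusted p = 0.0572) and Fos at 483, 412, 179, 259, 398 and 289.6. Il6ra, the interleukin 6 receptor, was at 139, 147, 75.2, 89.2, 115 and 139 CPM (log2 change -0.79, SE 0.13, adjusted p = 0.0504), just short of the threshold.

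At day 7 the members' profile was not distinguishable from vehicle at this number of libraries. Of 11561 genes 0 (0%) were called by edgeR's quasi-likelihood test, DESeq2 called 4, and the unadjusted p was under 0.05 for 291. The lowest adjusted p was 0.651. The day 3 and day 7 comparisons share the vehicle libraries. The cell cycle list had a median of -0.39 and the naive list one of 0.01. These medians joined opposite changes in the Cre-negative and Cre-positive pairs, of -0.94 and 0.31 for the cell cycle list and 0.37 and -0.44 for the naive list. Among the genes with the lowest p, none called by edgeR's quasi-likelihood test, Tmem176b, of the type 17 list, was at 51.5, 41.8, 74.5, 60, 106 and 97.4 CPM (log2 change 1.13, SE 0.14, adjusted p = 0.651) and higher in both day 7 libraries than in the other 4. Srm, spermidine synthase, had a log2 change of 0.92. Cpxm1 was at 14.4, 16, 44.7, 47.6, 49.3 and 82.6 CPM, and free RNA held 143 to 443 CPM of it. DESeq2 called Cpxm1 and Apoe, and edgeR called Cpxm1 without a filter on low counts and Apoe after thinning. Apoe, chosen after its values were seen, was at 289, 643, 358, 465, 1212 and 1192 CPM in members and 3280 to 8877 CPM in free RNA.

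Between day 3 and day 7 the division genes fell. At day 7, 24 genes (0.208% of 11561) were higher and 207 (1.79%) lower than at day 3. Of the 20 cell cycle genes 14 were called lower and 0 higher, with a median of -2.15 against 0.05 over all genes. Plk1 fell by 3.82 on the log2 scale (adjusted p = 0.0108) and Aurkb, another mitotic kinase, by 2.91. Spc25, a kinetochore protein, was at 18.1, 10.9, 47, 47, 3 and 4.45 CPM and fell by 3.59. Plk1 and Spc25 both reached a mean of 20 CPM, the limit for naming, through the day 3 libraries alone. Lgals1, a galectin of the effector and memory list, was at 525, 275, 891, 656, 301 and 299 CPM and fell as the 1 called gene of that list of 15. It was at 1308, 1888, 1205, 920.1, 1087 and 726 CPM inside the cycling gate and 318, 195, 401, 326, 218 and 236 outside. Ldha fell as the 1 called glycolysis gene. Hcst rose by 1.20 and Fhit by 1.40. Igfbp3, Gsn and Dcn, genes of stromal cells, rose by 3.87, 2.31 and 1.29. Members with at least 3 stromal genes held 98.9, 96.6, 98.2, 97.5, 99.5 and 97.9% of Dcn UMIs, a share raised by selection since Dcn is one of those genes. Without cycling-gated members 0 genes were called. Leaving out a day 7 library gave 1 (Cre-negative) or 0 genes, a day 3 library 70 (Cre-negative) or 68, and a vehicle library 1168 (Cre-negative) or 1055.

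By genotype label 0 of 11561 genes (0%) were called by edgeR's quasi-likelihood test, while DESeq2 called 20 and 938 had an unadjusted p under 0.05. The lowest adjusted p, 0.173, was that of Cdk8, a Mediator kinase, at 142, 495, 77.2, 221, 128 and 438 CPM (label log2 difference 1.62). Cdk8 was called by DESeq2, without a filter on low counts, after thinning and without members that were cycling-gated, held stromal genes, held an Il2ra or Ikzf2 UMI or held UMIs of other cell types. It was higher in the Cre-positive library of each treatment, and so was free RNA, at 377, 1031, 202, 772, 290.4 and 650.3 CPM. Cmss1 showed the same in members, at 261, 536, 124, 337, 249 and 841 CPM, and in free RNA, at 798, 1387.5, 441, 1327, 528 and 1369. With free RNA subtracted, edgeR's quasi-likelihood test again called 0 genes by label, and the lowest adjusted p was 0.495. Since 0 were called without the subtraction too, that count does not speak to the source. Free RNA as the source of Cdk8 or Cmss1 was not tested. Nrn1, which encodes neuritin, was at 26.4, 13.7, 28, 16, 38.2 and 17.3 CPM (label log2 difference -1.05, SE 0.16, adjusted p = 0.603) and lower in each Cre-positive library. Of the 19 naive genes 0 were called by label (median 0.14), of the 26 activation genes 0 (-0.04) and of the 20 cell cycle genes 0 (-0.47). DESeq2's 20 calls held 3 of the cell cycle list, Birc5, Stmn1 and H2afz. They also held mitochondrial transcripts and Lars2, as did the 10 calls after thinning. The members' median mitochondrial share was 1.73, 2.24, 1.38, 2.18, 1.53 and 2.22%. That share and the median depth were higher in the Cre-positive library of each treatment. Their part in the calls was not tested. Within treatments the naive median was 0.55 at vehicle, 0.32 at day 3 and -0.18 at day 7. Of 14 autophagy conjugation genes 0 were called (median -0.02). Gabarapl2, an ATG8 family protein, was at 156, 110.2, 164, 133, 133 and 121 CPM (label log2 difference -0.40, SE 0.12, adjusted p = 0.603).

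Compared with CD8 T cells of the same libraries, the members were higher for most follicular helper genes and lower for most type 1 helper genes. CD8 T cells were chosen by the same gate with Cd8a or Cd8b1 in place of Cd4 and numbered 6272. With the library as a block, 1741 of 11980 genes (14.5%) were higher in CD4 and 1621 (13.5%) lower. Without scaling beyond library size the split was 2827 higher and 1049 lower, with an all-gene median of 0.12 in place of 0.02. Of 21 follicular helper genes 19 were higher and 1 lower, with a median of 0.97. Of 26 activation genes 17 were higher and 3 lower (median 0.58). Of 14 type 1 helper genes 1 was higher and 11 lower (-1.12), and of 19 naive genes 3 were higher and 7 lower (-0.10).

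Il4 was at 0.273, 0, 3.01, 1.28, 0 and 0.515 CPM in CD8 T cells and was higher in CD4 (log2 difference 4.55, SE 0.42, adjusted p = 1.33e-05), with counts near 0 in CD8 T cells. Cd40lg was at 6.28, 9.88, 7.8, 6.53, 11.8 and 5.92 CPM in CD8 T cells, below the members in each library (log2 difference 4.25, SE 0.11, adjusted p = 8.76e-10). Zbtb7b, which encodes the CD4 lineage factor ThPOK, was at 34.8, 34, 24.1, 25, 37.8 and 34.4 CPM in members and 1.77, 0.633, 5.09, 3.71, 2.36 and 2.32 in CD8 T cells (log2 difference 3.43, SE 0.30, adjusted p = 8.70e-06). Maf was at 15.1, 17, 23, 12.7, 12.1 and 24.2 CPM in CD8 T cells (log2 difference 3.01, SE 0.19, adjusted p = 9.32e-07), and even its lowest member library was above them. Tox2 and Tnfrsf4 were higher by 4.25 and 3.37, Pdcd1 by 1.86 and Il2 by 1.71. Cxcr5 was higher by 0.88 (adjusted p = 0.0392). Without members holding an Il2ra or Ikzf2 UMI, Cxcr5 gave -0.04 with an adjusted p of 0.957. Selplg was the follicular helper list gene that was lower, by a log2 difference of -0.95.

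Genes known from cytotoxic cells were among those lower in members. Nkg7, a granule protein, was at 28.8, 18.8, 14.7, 20.7, 33.5 and 29.9 CPM in members and 521, 441, 481, 495, 441 and 522 in CD8 T cells (log2 difference -4.47, SE 0.12, adjusted p = 1.08e-09). Runx3, the CD8 lineage factor, was at 65.2, 57.5, 74.2, 102, 73.8 and 59.9 CPM against 229, 246, 326, 371, 216 and 229 (log2 difference -2.01, SE 0.07, adjusted p = 7.85e-09). Ccl5 was at 769, 662, 499.5, 459, 537 and 859 CPM in CD8 T cells (log2 difference -3.14, SE 0.51, adjusted p = 8.54e-04), and the vehicle Cre-negative members came closest to them. Ctsw, a protease of cytotoxic cells, was lower by a log2 difference of -3.37. Naive genes were split. Igfbp4 and Tcf7 were higher in members (0.52 and 0.31), while Il7r and Dapl1 were lower (-0.83 and -1.08). Cd69 was lower in members (-0.59), as were Il2rb and Myc.

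**Figure D5:**
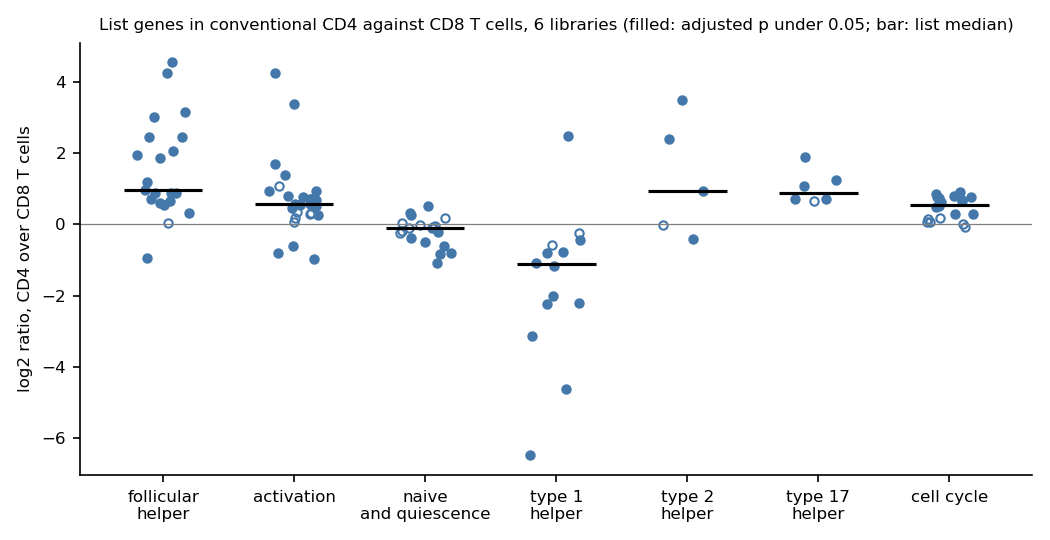
Log2 ratio of conventional CD4 to CD8 T cells (vertical axis) for each gene of 7 lists (horizontal axis); filled points had an adjusted p below 0.05 and the bar marks the median. Follicular helper genes lie mostly above 0 (median 0.97) and type 1 helper genes mostly below (median -1.12).

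The day 3 and day 7 changes were also compared between CD4 and CD8 T cells with an interaction term over 13311 genes. For day 3, 9 genes (0.0676%) were called, for day 7, 1 (0.00751%), and for the label, 5 (0.0376%). Il2ra had a smaller day 3 change in members than in CD8 T cells, by a log2 difference of -2.56 (adjusted p = 0.047). Without cycling-gated cells it was -0.05 (adjusted p = 0.997), and after thinning -3.39 (adjusted p = 0.0512). CD8 T cells held it at 2.86, 6.46, 36.3, 52.9, 2.89 and 6.95 CPM and members at 25.4, 26.2, 35, 43.8, 29.6 and 24. Ikzf2, which encodes Helios, also differed, by -1.29 for day 3, but was not called without cycling-gated cells (-0.75, adjusted p = 0.132) or after thinning (-0.98, adjusted p = 0.0853). CD8 T cells held it at 55.8, 80, 87.8, 180.2, 45.4 and 102 CPM and members at 293, 228, 188, 172, 203 and 221. The cell cycle list had a median day 3 difference between the 2 cell types of 0.02, with 0 of 20 called.

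Against the 403 Foxp3-positive CD4 T cells the members were higher for naive genes and lower for cell cycle and effector genes. Those Foxp3-positive cells were chosen by a captured Foxp3 UMI. They were deeper than the members in each library, at medians of 4478 to 13978 UMIs. Of 9634 genes, 1350 (14.0%) were higher and 1508 (15.7%) lower in members. Of 19 naive genes 18 were higher and 0 lower, with a median of 1.48, and of 20 cell cycle genes 0 were higher and 20 lower (-1.47). Dapl1, a gene of naive T cells, was higher by 3.72 (adjusted p = 1.60e-07) and Pde3b, a phosphodiesterase, by 3.91 (adjusted p = 4.85e-07). Pde3b was at 159.6, 238, 150.5, 267, 126 and 239 CPM in members and 19.1, 13.7, 16.3, 15.6, 3.71 and 5.66 in Foxp3-positive cells. Il2ra was at 219.7, 216, 281, 279.9, 197 and 222 CPM in Foxp3-positive cells (log2 difference -2.92, SE 0.11, adjusted p = 3.63e-08), each above every member library. Ikzf2 was at 1467.5, 2083, 896, 1635, 1287 and 1519 CPM there (log2 difference -2.70, SE 0.13, adjusted p = 1.74e-07). Mki67 was at 380.4, 324, 313, 463, 345 and 336 CPM in Foxp3-positive cells (log2 difference -2.08, SE 0.35, adjusted p = 0.00109), and the day 3 members came nearest to them. Of 20 follicular helper genes 12 were higher and 3 lower in members, with a median of 0.79. Of 15 effector and memory genes 0 were higher and 14 lower (-1.34), among them S100a4, Capg and Lgals1.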

How the data were processed

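Lymph node cells of 12 libraries, 6 of them from the CD45 fraction with 1 library per treatment and label, were measured by droplet RNA sequencing. The deposited values are raw UMI counts per gene and barcode, without normalization per the file headers and values. The submitters' processing notes name Cell Ranger 7.0.1 and mm10, and strand handling is not given in the sources used here. Members and gene lists were chosen with earlier results of these data known. Cells had at least 1000 UMIs, at least 500 genes and at most 10% mitochondrial UMIs. The gate used gene counts, clustering was not used, and doublets were left in except in an alternative (Scrublet scores, 0.8% of barcodes per 1000 barcodes removed).

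Member counts were summed per library. edgeR 4.0.16 (R 4.3.3, limma 3.58.1) used filterByExpr by treatment, TMM scaling and quasi-likelihood tests with terms for treatment and label (2 residual degrees of freedom), and Benjamini-Hochberg adjustment over all genes tested at 0.05. Comparisons of cell types had the library as a block. The standard error is the log2 change divided by the square root of F. DESeq2 1.42.0 was an alternative, with others for scaling, filters, depth (1000 UMIs per cell), free RNA, gates, sex and libraries. The fit was also run on simulated counts, whose outcome is not given here. Gene positions are from GENCODE M21 (GRCm38). Scripts ran in Python 3.11.15 with numpy 2.4.6, scipy 1.17.1, pandas 2.3.3, scanpy 1.11.5 and matplotlib 3.10.9. No column without a sample was present.

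Named genes were all members of the naive, activation and follicular helper lists with a mean of at least 20 CPM or a call. Added to these were the 10 largest called changes per direction among genes with such a mean and 1 sign in all pairs (or, with none called, the 5 lowest p). Of each other list up to 3 members could be named. 1 gene of the naive list is not reported here, and neither it nor a gate that used it enters the list's counts and medians or the shares of cells. Antigen receptor, immunoglobulin, mitochondrial, ribosomal, haemoglobin and sex-linked genes were left out.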

Additional observations from a re-analysis of the deposited data

Results flagged for a closer look

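Of the day 3 changes, 6 genes averaging at least 20 CPM differed between conventional CD4 and CD8 T cells by an interaction test over 13311 genes (edgeR's quasi-likelihood test with Benjamini-Hochberg adjustment). Values are the log2 change in CD4 minus that in CD8. Il2ra gave -2.56 (SE 0.32, adjusted p = 0.047). Anxa1, annexin A1, gave -2.80 (adjusted p = 0.0293), at 38.8, 82.9, 24.2, 8.54, 18 and 23.5 CPM in members and 6.82, 17.9, 23.8, 20.4, 15.9 and 28 in CD8 T cells. Ikzf2 gave -1.29 (adjusted p = 0.0336). Plpp3, Fstl1 and Ebf1, known from endothelial, stromal and B or stromal cells, gave -2.57, -2.14 and -1.46. With DESeq2 all 9 called genes, these 6 included, kept the call. After thinning to 1000 UMIs 0 of the 9 did. A lost call need not mean a smaller difference, since after thinning that of Il2ra was larger and that of Ikzf2 smaller, as given above. Without cycling-gated cells Il2ra, Ikzf2, Anxa1 and Fstl1 lost the call, and without stromal-gene cells Anxa1, Fstl1 and Ebf1 did, while Plpp3 had no value there.

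The label difference, again CD4 minus CD8, was -1.02 for Ikzf2 (adjusted p = 0.0407). For Mgp, a matrix protein gene, it was -3.68 (adjusted p = 0.0407), at 149, 0.391, 20.1, 7.26, 17.2 and 41.3 CPM in members and 37.9, 6.71, 2.91, 6.02, 2.36 and 103 in CD8 T cells. The vehicle Cre-negative members and the day 7 Cre-positive CD8 T cells were far above the other libraries for Mgp. Without cycling-gated cells neither gene was called (adjusted p = 0.718 for Mgp and 0.0778 for Ikzf2). With DESeq2 and after thinning both were called. Mgp is one of the stromal list genes and had no value without stromal-gene cells, where Ikzf2 was called.

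The follicular helper-gated share in the Cre-positive minus the Cre-negative library was -18.1 percentage points at vehicle and 15.6 at day 7. The opposite signs drew attention to it, and with 1 library per combination the difference was not tested. After thinning to 1000 UMIs the shares were 3.87, 1.74, 1.51, 2.31, 0.805 and 4.15%.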

How the results depend on the processing

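The day 3 calls changed with most settings, and the cause was not tested. The count of called genes, 207 at day 3 against vehicle and 231 at day 7 against day 3, became 582 and 525 with DESeq2, 0 and 110 without scaling beyond library sums, 945 and 865 without a filter on low counts (more genes tested), and 518 and 348 at a mean of at least 20 CPM (fewer tested). It was 673 and 446 without the highest doublet scores, 8 and 69 without members holding an Il2ra or Ikzf2 UMI, 572 and 572 without those holding UMIs of other cell types, 25 and 56 after thinning, and 64 and 136 with free RNA subtracted. Y-linked cells alone (fewer cells) gave 8 and 0, and 0 of the 8 were among the 207. The next settings were chosen after seeing the data. Without cycling-gated members the counts were 2 and 0, without stromal-gene members 290 and 455, and without both 0 and 0. Leaving out 1 library, which assumes that the lone library of an arm varies like the others, gave 3 to 821 and 0 to 1168 genes. Day 7 against vehicle (0 called) gave 4 with DESeq2, 3 without a filter, 3 without Il2ra or Ikzf2 members, 1 after thinning and 0 to 2 without 1 library. The label comparison (0 called) gave 20 with DESeq2, 2 without a filter, 1 without Il2ra or Ikzf2 members, 2 without UMIs of other cell types and 10 after thinning. It gave 1 without cycling-gated, 1 without stromal-gene and 2 without either kind of members, and 0 without any 1 library. Against CD8 T cells (3362) the count was 2113 at the 20 CPM filter, 920 without UMIs of other cell types, 1220 after thinning, 1901 in Y-linked cells and 2616 to 3210 without 1 library. The genes of other cell types were Cd74, H2-Aa, Lyz2, Col1a1, Nkg7 and Jchain, and the setting applied to the CD8 T cells too. Nkg7 is high in CD8 T cells, so there the setting removed CD8 T cells by a gene of their own. Against Foxp3-positive cells (2858) it was 725 after thinning and 1285 without cycling-gated cells. The interaction counts of 9 (day 3), 1 (day 7) and 5 (label) became 18, 3 and 3 with DESeq2 and 4, 14 and 1 without cycling-gated cells. Without stromal-gene cells day 3 gave 5, and after thinning the counts were 6 for day 3, 0 of them among the 9, and 2 for day 7. Mean shares at vehicle, day 3 and day 7 fell with thinning to 16.2%, 12.4% and 12.6% (activated, from 56.2%, 69.6% and 50.2%) and to 2.81%, 1.91% and 2.48% (follicular helper, from 19.5%, 29.9% and 17.1%), which changed the order of treatments in both gates. The cycling share fell to 2.78%, 11% and 1.3%, from 5.29%, 24.4% and 3.92%. Without Il2ra or Ikzf2 members the activated share was 46.1%, 58.1% and 41.3%, the follicular helper share 11.8%, 14.1% and 9.96% and the cycling share 1.87%, 10.6% and 2.11%. Il2ra is a gene of the activated gate, so dropping its cells lowers the activated share by selection. Depth was not matched in that setting. With 1 more gene required, the activated share was 35.1%, 48% and 28.2%, the follicular helper share 7.89%, 16.4% and 7.41%, and the cycling share 3.7%, 21.7% and 2.6%. In Y-linked cells the cycling share was 7.86%, 16.2% and 6.09%. Against CD8 T cells Cxcr5 turned to -0.037 without Il2ra or Ikzf2 members, Il4ra to 0.0046 and Tmem176b to -0.13 without UMIs of other cell types, and Tyms to -0.089 without cycling-gated members. Of 3043 values of named genes with a call, these 4 included, 2599 kept direction and call and 440 lost the call. For those called at day 3 it was 288 and 183 of 471. No paired analysis was possible because every group is 1 library and all carry replicate number 1, so the groups share fewer than 2 numbers. The label term of the treatment fit and the library block of the cell type fits do not use replicate numbers. Depth limits genes near 0, such as Il21 and Il4.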
